A study of Mus musculus with 15 samples.

Results

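The receptor chains for GM-CSF, IL-3 and IL-5 were followed across 5 lines of 4T1, a metastatic mouse mammary carcinoma cell line. The family has 5 genes here, Csf2rb, Csf2rb2, Csf2ra, Il3ra and Il5ra, out of 19937 genes measured, and each is represented by its brightest probe set. It was chosen by the measured log2 level of Csf2rb, which was higher in every line that re-expresses Twist1, so those Csf2rb differences, and those of its near-copy Csf2rb2, are given as a description with no test. Csf2ra, Il3ra and Il5ra came in through the family and were tested in all comparisons.

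All derived lines were 4T1 cells depleted of endogenous Twist1 (Tw1KD). The S42D, S42A and wild type lines were Tw1KD cells that also express Twist1 S42D, Twist1 S42A or wild-type Twist1, and parental 4T1 cells were the control. Each line had 3 arrays, 15 in all, and the values are log2 intensities. Per the labels, every line was kept in medium with puromycin (4 µg/ml) plus G418 (800 µg/ml), and cells were taken at 70% confluency. On the S42D samples the genotype label mentions S42A as well as S42D, and only the title tells them apart. How Twist1 was depleted, how the constructs were introduced and whether a line is a clone are not given in the sources used here. Nothing says that the 3 arrays of a line came from separate cultures, so the p-values measure only the spread between these samples, which may be technical.

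These receptors are built from a ligand-binding alpha chain and a shared beta chain that carries the signal into the cell. In the mouse, Csf2rb encodes the beta common chain used with all 3 cytokines, and the neighbouring copy Csf2rb2 encodes a beta chain used with IL-3. The bound complex activates the kinase Jak2 and the factor Stat5, and the family is best known from myeloid blood cells, whose survival and growth it supports.

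Array medians lay between 6.57 and 6.72 log2, and arrays of a line correlated across genes at 0.997 to 0.999. Twist1, the targeted gene, averaged 9.0 ± 0.058 in the S42D line, 8.70 ± 0.099 in the S42A line, 8.33 ± 0.163 in the wild type line, 7.35 ± 0.121 in Tw1KD cells and 9.03 ± 0.031 in parental cells (log2, SD, n = 3). Its direction matches the labels, although it is not known whether transcripts from the constructs are read by its probe set. Of 24 leukocyte markers 23 were measured, with a mean level per array of 6.03 to 6.13 in the S42D line, 6.01 to 6.07 in the S42A line, 5.93 to 5.98 in the wild type line, 5.97 to 6.15 in Tw1KD cells and 5.94 to 5.98 in parental cells. In each line 20 or 21 of them lay below 7.25, the median level of all genes. Ptprc, which encodes the pan-leukocyte antigen CD45, was between 5.07 and 5.37 on every array. Itgb2, an integrin chain of leukocytes, and Cd68, a lysosomal protein of macrophages, lay above it in all lines, and S100a8, a calcium-binding protein of neutrophils, in the wild type line. Itgb2 averaged 11.77 in the S42D line, 8.83 in the S42A line, 9.61 in the wild type line, 10.87 in Tw1KD cells and 10.71 in parental cells. Cd68 averaged 10.71, 10.27, 9.80, 10.38 and 8.50 in the same order of lines. Against Tw1KD cells S100a8 rose in all 3 re-expressing lines, by 0.88 ± 0.12 in the S42D line, 1.06 ± 0.12 with S42A and 1.89 ± 0.12 with wild type (adjusted p = 2.9e-05, 4.1e-06 and 9.5e-09). Lyz2, the lysozyme gene of macrophages, rose by 0.39 ± 0.13 in the S42D line and by 0.88 ± 0.13 with S42A (adjusted p = 0.028 and 6.5e-05). Other markers fell: S100a9 by 0.23 ± 0.089 in the S42D line, and Ly6g by 0.38 ± 0.12 with wild type. Itgb2 rose by 0.90 ± 0.049 in the S42D line, and fell by 2.04 ± 0.049 with S42A and by 1.26 ± 0.049 with wild type. Cd68 rose by 0.32 ± 0.048 in the S42D line and fell by 0.585 ± 0.048 with wild type. Of the 23, limma called 4 higher and 2 lower with S42D, 2 and 1 with S42A, and 2 and 5 with wild type. Over all genes the shares were 21.7% and 21.7%, 22.8% and 19.7%, and 23.5% and 24.5%. In these bulk samples fewer cells of a type and less RNA per cell cannot be told apart, and the part of these genes in the results on the family was not tested. The 12 epithelial markers had a mean level per array of 8.03 to 8.17 in the S42D line, 7.65 to 7.77 in the S42A line, 8.39 to 8.44 in the wild type line, 9.80 to 9.88 in Tw1KD cells and 9.34 to 9.41 in parental cells.

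The beta common chain showed the largest differences of the family against Tw1KD and parental cells. Csf2rb (probe set 10425066) read 12.07, 12.00 and 11.99 log2 in the S42D line, 10.82, 10.84 and 10.83 in S42A cells, and 10.88 on each array of the wild type line. It read 7.74, 7.59 and 7.80 in Tw1KD cells and 6.98, 6.83 and 6.45 in parental cells. The S42D line stood highest, the S42A and wild type lines lay together below it, and Tw1KD and parental cells lay lower still, with no array of one of these 4 levels reaching another. The S42A arrays all lay just below the wild type arrays. The SD of the wild type line, 0.002, was well under the median residual SD over all genes, 0.0857.

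Against Tw1KD cells the Csf2rb mean was higher by 4.31 ± 0.098 log2 in the S42D line, by 3.12 ± 0.098 in S42A cells and by 3.17 ± 0.098 in the wild type line (SE), which is 19.9-fold, 8.7-fold and 9.0-fold. Ranked by size among the rises of all genes, these differences stood at places 13, 15 and 15. Against parental cells they were 5.27, 4.08 and 4.13, or 38.5-fold, 16.9-fold and 17.5-fold, each at place 2. These values chose the family and are not tested.

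The comparisons that the choice did not itself use were tested by limma with Benjamini-Hochberg adjustment over all genes. The Csf2rb arrays of every line entered the choice, so these p-values are not independent of it. Csf2rb was higher in the S42D line than in the wild type line by 1.14 ± 0.098 log2 (2.21-fold, adjusted p = 2e-07, 95% interval 0.93 to 1.35). It was higher in the S42D line than in the S42A line by 1.19 ± 0.098 (2.28-fold, adjusted p = 2.2e-07, 95% interval 0.98 to 1.40). Between the S42A and wild type lines the difference was -0.05 ± 0.098 (adjusted p = 0.74), with an interval of -0.26 to 0.16. Depletion itself went with a higher value: Tw1KD cells exceeded parental cells by 0.96 ± 0.098 log2 (1.94-fold, adjusted p = 2.1e-06, 95% interval 0.74 to 1.17). However, the Tw1KD and the parental arrays both entered the choice of the family. Over all genes 43.3% were called between the S42D and wild type lines, 36.1% between S42D and S42A, 40.0% between S42A and wild type and 36.3% between Tw1KD and parental cells.

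The order of the lines by Csf2rb was not their order by Twist1. Twist1 in the S42D line and in parental cells differed by -0.03 ± 0.080 log2 (adjusted p = 0.78, 95% interval -0.21 to 0.14), while these lines held the highest and the lowest Csf2rb level. Twist1 was 1.69 ± 0.080 log2 lower in Tw1KD than in parental cells (adjusted p = 7.1e-10), where Csf2rb was higher. Twist1 was 0.37 ± 0.080 higher in the S42A line than in the wild type line (adjusted p = 0.0016), where no Csf2rb difference was called. Twist1 was also lower than in parental cells in the wild type line, by 0.70 ± 0.080 (limma, adjusted p = 3.7e-06). In the S42A line it was lower than in parental cells by 0.33 ± 0.080 (adjusted p = 0.0038). Csf2rb was higher than in parental cells in both of these lines. The remaining pairs of lines had the same direction for both genes. By limma, Twist1 was higher in the S42D line than in the wild type line by 0.668 ± 0.080 (adjusted p = 6.2e-06). It exceeded the S42A line by 0.295 ± 0.080 (adjusted p = 0.0089). Against Tw1KD cells Twist1 was higher by 1.654, 1.359 and 0.985 in the S42D, S42A and wild type lines. The part of the Twist1 level in the Csf2rb differences was not tested.

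The IL-3 beta chain was likewise highest in the S42D line and lowest in parental cells. Csf2rb2 (probe set 10430302) read 9.21, 9.24 and 9.24 in the S42D line, 7.62, 7.70 and 7.86 in S42A cells, and 7.67, 7.70 and 7.66 in the wild type line. It read 6.40, 6.25 and 6.36 in Tw1KD cells and 5.78, 5.85 and 5.91 in parental cells. The S42A and wild type arrays overlapped, and every other pair of lines was separate. Its differences from Tw1KD cells, 2.89 ± 0.058 in the S42D line, 1.39 ± 0.058 in S42A cells and 1.34 ± 0.058 in the wild type line, are a description only (7.42-fold, 2.62-fold and 2.53-fold). Csf2rb2 was higher in the S42D line than in the wild type line by 1.55 ± 0.058 (2.93-fold, adjusted p = 4e-11) and than in the S42A line by 1.5 ± 0.058 (2.83-fold, adjusted p = 7.7e-11). It was 0.49 ± 0.058 higher in Tw1KD than in parental cells (1.4-fold, adjusted p = 9.5e-06). The S42A and wild type lines differed by 0.05 ± 0.058 (adjusted p = 0.55, 95% interval -0.08 to 0.17). Csf2rb and Csf2rb2 are near-identical copies and probe sequences were not used here, so signal from one transcript may be read by the probe set of the other, and the pair is not independent evidence.

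**Figure D1:**
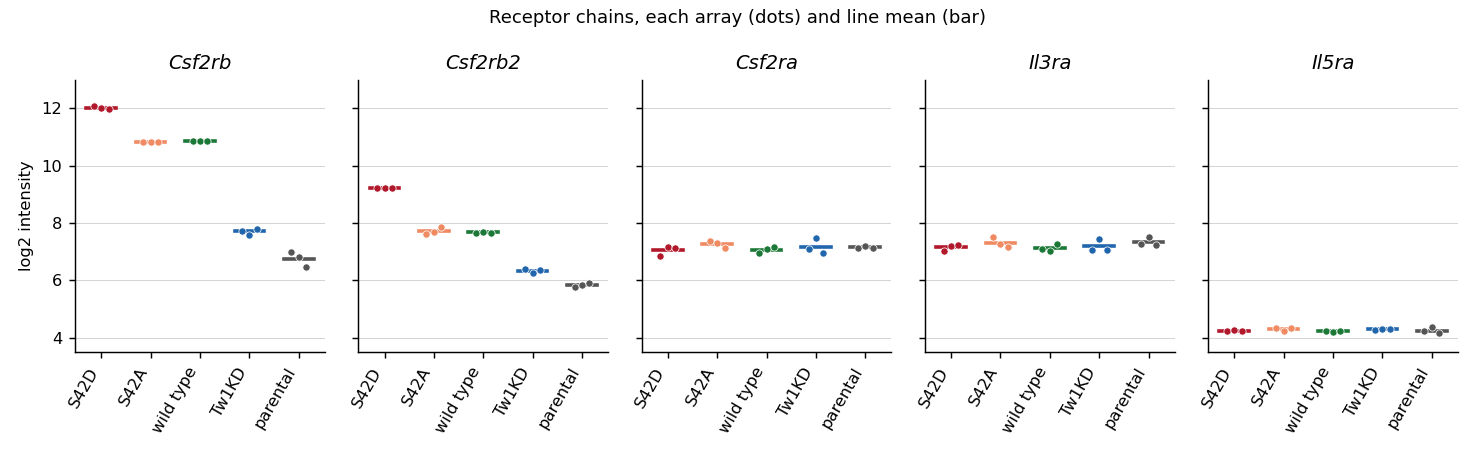
Log2 intensity of the 5 receptor chains on each array (dots) with the line mean (bar), for the S42D, S42A, wild type, Tw1KD and parental lines (n = 3 each). Csf2rb runs between 6.45 and 12.07 and Csf2rb2 between 5.78 and 9.24 with the S42D line on top, while the dots of Csf2ra, Il3ra and Il5ra lie level across lines.

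The alpha chains gave no such pattern. Csf2ra, the GM-CSF-binding chain (probe set 10468893), read 6.86, 7.16 and 7.13 in the S42D line, 7.37, 7.30 and 7.14 in the S42A line, 6.95, 7.11 and 7.15 in the wild type line, 7.08, 7.48 and 6.96 in Tw1KD cells and 7.14, 7.21 and 7.13 in parental cells. Il3ra, the IL-3-binding chain (probe set 10412760), read 7.02, 7.21 and 7.25 in the S42D line, 7.50, 7.26 and 7.17 in the S42A line, 7.10, 7.03 and 7.27 in the wild type line, 7.07, 7.43 and 7.06 in Tw1KD cells and 7.26, 7.53 and 7.23 in parental cells. Arrays of all 5 lines overlapped for both genes.

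Il5ra, the IL-5-binding chain (probe set 10546762), lay between 4.15 and 4.36 on all 15 arrays. Only 7.37% to 8.38% of all line means lie below its own, and without a detection call in the deposited values it cannot be said whether its transcript was present. Over the 3 alpha chains and 10 comparisons, 0 of 30 tests by limma had an adjusted p under 0.05, and 0 had an unadjusted p under 0.05. The lowest adjusted p was 0.17. The differences ran from -0.22 to 0.20 log2, and the 95% intervals of all 30 lay within -0.47 to 0.45. The smallest called difference of the beta chains was 0.49, for Csf2rb2 in Tw1KD against parental cells (95% interval 0.36 to 0.61). That interval overlaps the range of the alpha chains. Arrays were separate in 2 of the 30, both with Il5ra lower than in Tw1KD cells, by 0.05 in the S42D line (adjusted p = 0.44) and by 0.08 in the wild type line (adjusted p = 0.23). With array weights, limma called Csf2ra higher in the S42A line than in Tw1KD cells (0.20, adjusted p = 0.032) and than in the wild type line (0.21, adjusted p = 0.015), and lower in the S42D line than in the S42A line (-0.20, adjusted p = 0.029). Il5ra was called higher in the S42A line than in parental cells with median centring (0.15, adjusted p = 0.038) and quantile normalization (0.14, adjusted p = 0.011). Over all genes, the share called was 43.4% for S42D, 42.5% for S42A and 48.0% for wild type against Tw1KD, and 37.0%, 40.3% and 49.0% for the same lines against parental cells.

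**Figure D2:**
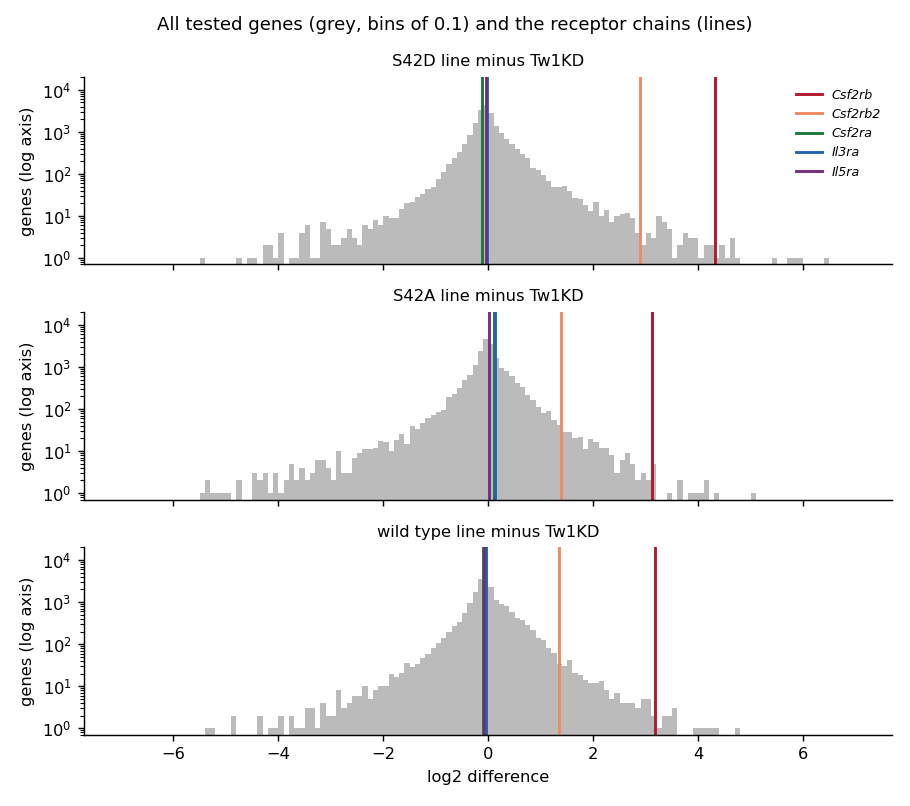
Number of genes (log axis) by log2 difference from Tw1KD cells in bins of 0.1 (grey), for the S42D, S42A and wild type lines from top to bottom, with the 5 receptor chains as vertical lines. Csf2rb lies far in the right tail at 4.31, 3.12 and 3.17 and Csf2rb2 at 2.89, 1.39 and 1.34, and the alpha chains lie beside 0.

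Of the 3 ligand genes, Csf2 set the S42D line apart, and Il3 and Il5 did not. Csf2, the gene of GM-CSF (probe set 10385912), read 7.28, 6.81 and 6.36 in the S42D line, 5.03, 5.11 and 4.92 in the S42A line, 5.10, 5.30 and 5.43 in the wild type line, 5.29, 5.49 and 5.25 in Tw1KD cells and 5.15, 5.28 and 5.29 in parental cells. All S42D arrays lay above every other array, and they also spread the most (SD 0.462). The Csf2 mean in the S42D line, 6.81, still lay below 7.25, the median level of all genes. Csf2 was higher in the S42D line than in Tw1KD cells by 1.47 ± 0.17 log2 (2.77-fold, adjusted p = 4e-06), than in the wild type line by 1.54 ± 0.17 (2.91-fold, adjusted p = 2.2e-06) and than in the S42A line by 1.79 ± 0.17 (3.47-fold, adjusted p = 7.9e-07). Against parental cells the S42D difference was 1.57 ± 0.17 (2.98-fold, adjusted p = 3.3e-06).

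In the other lines Csf2 was not called. The S42A arrays all lay below the Tw1KD arrays, with a difference of -0.32 ± 0.17 (adjusted p = 0.15), which had an adjusted p of 0.034 without S42D replicate 1, 0.038 without S42D replicate 3 and 0.015 with only these 2 lines fitted. The wild type line differed from Tw1KD cells by -0.07 ± 0.17 (adjusted p = 0.76), and Tw1KD from parental cells by 0.10 ± 0.17 (adjusted p = 0.71). Il3, which encodes IL-3, lay between 3.81 and 4.13 on all arrays and was not called by limma in any of the 10 comparisons, where its lowest unadjusted p was 0.31. Il5, which encodes IL-5, averaged 4.34 in the S42D line, 4.34 in the S42A line, 4.26 in the wild type line, 4.56 in Tw1KD cells and 4.46 in parental cells. It was called once, lower in the wild type line than in Tw1KD cells by 0.30 ± 0.099 (adjusted p = 0.023), and this call was lost in 6 alternatives, with adjusted p between 0.056 and 0.13. Both genes lay near the dim end of the arrays.

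Promoters are shown for the IL-3 beta chain and GM-CSF, which were both highest in the S42D line, and for the GM-CSF alpha chain, which was level across lines. The sequences are from RefSeq (GRCm38.p6), 250 bases before to 50 after the start on the gene's strand, at chr15:78305672-78305971 (minus) for Csf2rb2, chr11:54249850-54250149 (minus) for Csf2 and chr19:61228369-61228668 (minus) for Csf2ra. Capitals mark the E-box word CANNTG, the form of site that basic helix-loop-helix factors such as Twist1 are known to bind, which reads the same pattern on both strands.
Csf2rb2: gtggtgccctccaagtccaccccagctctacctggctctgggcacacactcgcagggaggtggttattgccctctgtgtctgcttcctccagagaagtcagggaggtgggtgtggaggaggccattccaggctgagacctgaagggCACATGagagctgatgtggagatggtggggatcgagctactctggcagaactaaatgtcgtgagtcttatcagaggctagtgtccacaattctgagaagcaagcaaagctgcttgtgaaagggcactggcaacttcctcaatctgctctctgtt
Csf2: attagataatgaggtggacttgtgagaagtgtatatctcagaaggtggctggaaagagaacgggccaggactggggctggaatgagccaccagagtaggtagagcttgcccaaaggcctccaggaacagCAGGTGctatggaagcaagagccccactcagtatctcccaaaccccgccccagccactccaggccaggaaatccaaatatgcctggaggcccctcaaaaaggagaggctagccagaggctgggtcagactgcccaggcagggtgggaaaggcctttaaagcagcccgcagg
Csf2ra: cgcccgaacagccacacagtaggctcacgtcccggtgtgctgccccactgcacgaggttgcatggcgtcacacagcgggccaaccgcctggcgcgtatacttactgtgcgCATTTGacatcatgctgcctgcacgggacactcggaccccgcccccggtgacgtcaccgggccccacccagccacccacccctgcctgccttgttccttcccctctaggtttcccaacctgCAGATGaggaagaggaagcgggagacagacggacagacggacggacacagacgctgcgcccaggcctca
Csf2rb2 held the word once, as CACATG, Csf2 once, as CAGGTG, and Csf2ra held CATTTG and CAGATG. The word stood in 72.3% of 32851 promoters of the same length, with a median of 1 per promoter. Il5ra held it once, and Il3ra, Il3 and Il5 held 0. The promoter set used here had no entry for Csf2rb, so the word was not counted for that gene.

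The genes that pass the receptor signal on moved in both directions. Of 24 listed members of receptor-proximal signalling 18 were measured. Against Tw1KD cells, 8 rose and 5 fell in the S42D line, 9 rose and 6 fell in S42A cells, and 6 rose and 9 fell in the wild type line, with 5 higher and 7 lower in Tw1KD than in parental cells. Over all genes 21.7% rose and 21.7% fell in the S42D line, 22.8% and 19.7% in S42A cells and 23.5% and 24.5% in the wild type line, and 19.9% rose and 16.4% fell in Tw1KD against parental cells. The list median was 0.03 log2 in the S42D line, 0.09 in S42A cells and -0.10 in the wild type line, against -0.045, -0.013 and -0.061 over all genes.

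Jak2, the kinase bound to the beta chain, fell against Tw1KD cells in all 3 re-expressing lines. It read 9.28, 9.12 and 9.23 in the S42D line, 10.99, 11.01 and 10.97 in the S42A line, 9.75, 9.62 and 9.56 in the wild type line, 11.20, 11.21 and 11.35 in Tw1KD cells and 10.81 on each array of parental cells. No 2 lines overlapped. Against Tw1KD cells Jak2 fell by 2.04 ± 0.058 log2 in the S42D line (adjusted p = 1.6e-12), by 0.26 ± 0.058 in the S42A line (adjusted p = 0.0017) and by 1.61 ± 0.058 in the wild type line (adjusted p = 2.4e-11). It was 0.44 ± 0.058 higher in Tw1KD than in parental cells (adjusted p = 2.2e-05). The S42A line exceeded the wild type line by 1.35 ± 0.058 (adjusted p = 2.4e-10), a pair of lines between which neither beta chain was called.

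Pik3r1, a regulatory subunit of PI3-kinase, rose against Tw1KD cells by 1.19 ± 0.055 in the S42D line (adjusted p = 3.1e-10), 0.72 ± 0.055 in S42A cells and 0.48 ± 0.055 in the wild type line, and was 0.80 ± 0.055 lower in Tw1KD than in parental cells. The catalytic subunit gene Pik3cb fell by 0.70 ± 0.063 in the S42D line and 0.66 ± 0.063 in the wild type line, and differed by -0.16 ± 0.063 in the S42A line (adjusted p = 0.053). Shc1, an adaptor recruited to activated receptors, rose by 0.35 ± 0.042, 0.59 ± 0.042 and 0.22 ± 0.042 in the S42D, S42A and wild type lines.

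Most negative regulators of cytokine signalling were called higher in the S42D line. Of 12 genes, 8 rose and 2 fell there against Tw1KD cells, with a median of 0.57 log2 against -0.045 over all genes. In the S42A line 5 rose and 4 fell (median 0.11), in the wild type line 5 rose and 5 fell (median 0.07), and 4 were higher and 3 lower in Tw1KD than in parental cells. Over all genes the shares that rose and fell were 21.7% and 21.7%, 22.8% and 19.7%, 23.5% and 24.5%, and 19.9% and 16.4% in these comparisons, in the same order. Set directly against the wild type line, 8 were higher and 0 lower in the S42D line (median 0.29), where 20.7% of all genes were higher and 22.6% lower. By limma at an unadjusted p under 0.05, 2 were lower there, and the count called lower was up to 2 under other settings. Against the S42A line, 8 were higher and 1 lower in the S42D line (median 0.31), where 17.1% of all genes were higher and 19.1% lower.

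Inpp5d encodes the phosphatase SHIP1, known as a brake on PI3-kinase in blood cells. It read 9.04, 8.86 and 8.94 in the S42D line, 7.25, 7.49 and 7.33 in the S42A line, 6.88, 6.91 and 6.82 in the wild type line, 7.26, 7.21 and 7.23 in Tw1KD cells and 6.82, 6.76 and 6.87 in parental cells. The S42D arrays stood more than 1 log2 above all others. It rose by 1.71 ± 0.061 in the S42D line against Tw1KD cells (adjusted p = 1.8e-11), differed by 0.12 ± 0.061 in the S42A line (adjusted p = 0.14) and fell by 0.37 ± 0.061 in the wild type line (adjusted p = 0.00014).

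Cblb, a ubiquitin ligase, rose by 0.76 ± 0.046 in the S42D line and 0.26 ± 0.046 in the wild type line, with 0.10 ± 0.046 in the S42A line (adjusted p = 0.11). Sh2b3, which encodes the adaptor LNK that restrains Jak2, rose by 0.71 ± 0.037, 0.32 ± 0.037 and 0.37 ± 0.037 in the S42D, S42A and wild type lines. Pias1, an inhibitor of activated STAT factors, rose by 0.51 ± 0.057, 0.17 ± 0.057 and 0.36 ± 0.057 in those lines, after a value 0.53 ± 0.057 lower in Tw1KD than in parental cells. Among the feedback inhibitors of the SOCS family, Socs1 rose in all 3 re-expressing lines, and Socs3 rose with S42D, fell with S42A and did not pass the test with wild type. Socs2 fell by 1.02 ± 0.082 in the S42D line, 1.20 ± 0.082 in S42A cells and 0.81 ± 0.082 in the wild type line. Cish, of the same family, fell by 0.25 ± 0.067, 0.19 ± 0.067 and 0.75 ± 0.067 in the same lines (adjusted p = 0.0067, 0.037 and 2.7e-07).

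**Figure D3:**
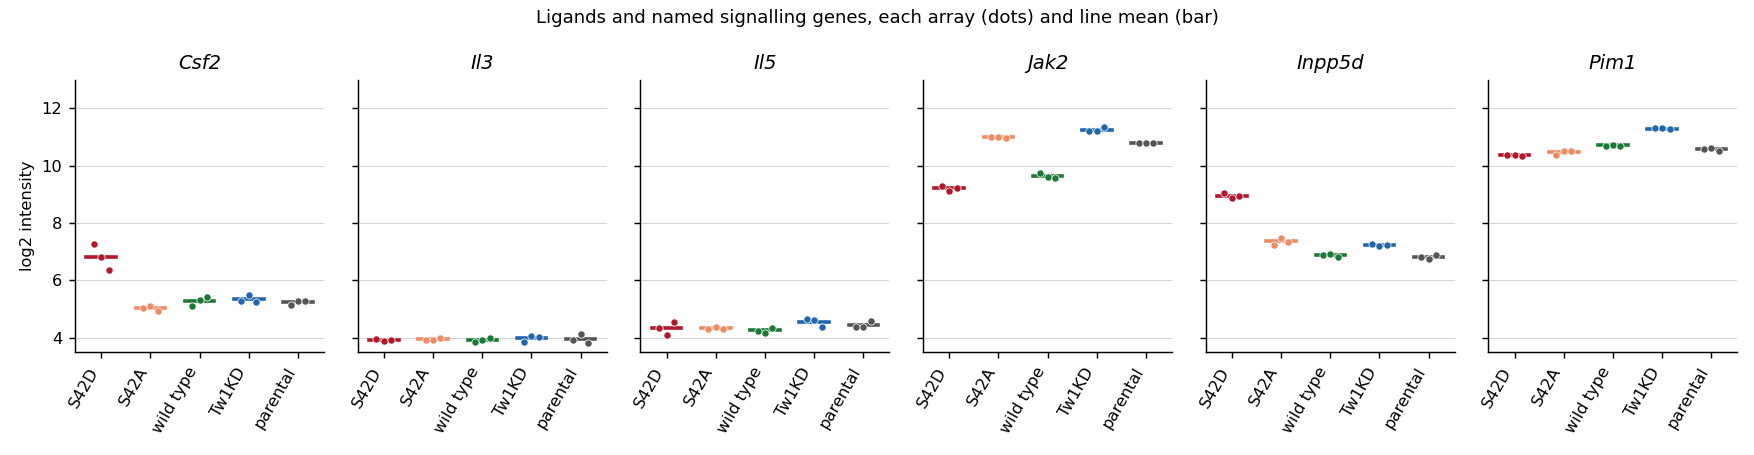
Log2 intensity on each array (dots) and line mean (bar) of the ligand genes Csf2, Il3 and Il5 and of Jak2, Inpp5d and Pim1, for the S42D, S42A, wild type, Tw1KD and parental lines (n = 3 each). Csf2 and Inpp5d are highest in the S42D line, Jak2 is lowest in the S42D line at 9.21 and Pim1 is highest in Tw1KD cells at 11.29.

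Genes known to respond to Jak2 and Stat5 were called in both directions. Of 15 measured, 6 rose and 5 fell in the S42D line, 5 rose and 7 fell in S42A cells and 6 rose and 6 fell in the wild type line against Tw1KD cells, with 7 higher and 4 lower in Tw1KD than in parental cells. The shares over all genes were 21.7% rising and 21.7% falling with S42D, 22.8% and 19.7% with S42A, 23.5% and 24.5% with wild type, and 19.9% and 16.4% for Tw1KD. Bcl2, a survival gene, read 12.36, 12.36 and 12.26 in the S42D line, 11.88 on each array of the S42A line, 11.98, 11.96 and 11.98 in the wild type line, 10.90, 10.95 and 11.01 in Tw1KD cells and 11.74, 11.73 and 11.76 in parental cells. Tw1KD cells were lowest, and all 3 re-expressing lines lay above parental cells. The rise against Tw1KD cells was 1.37 ± 0.039 in the S42D line (adjusted p = 2e-12), 0.93 ± 0.039 in S42A cells and 1.02 ± 0.039 in the wild type line.

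Pim1, a kinase induced by Stat5, fell against Tw1KD cells by 0.93 ± 0.046 in the S42D line (adjusted p = 6.4e-10), 0.82 ± 0.046 in S42A cells and 0.58 ± 0.046 in the wild type line. Myc, a growth regulator, fell by 0.46 ± 0.043, 0.71 ± 0.043 and 0.76 ± 0.043 in the same lines. Both were higher in Tw1KD than in parental cells, Pim1 by 0.71 ± 0.046 and Myc by 0.87 ± 0.043. The immediate-early factor genes differed by line. Egr1 rose by 0.64 ± 0.049 in the S42D line and 0.31 ± 0.049 in the wild type line and fell by 1.05 ± 0.049 in the S42A line (adjusted p = 3.1e-10). Fos rose by 0.29 ± 0.080 in the S42D line, fell by 0.69 ± 0.080 in the wild type line and differed by -0.04 ± 0.080 in the S42A line (adjusted p = 0.73).

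The other type I cytokine receptors, 25 measured of 30 listed, set the family among its relatives. Against Tw1KD cells 9 rose and 7 fell in the S42D line, 5 rose and 3 fell in S42A cells and 8 rose and 7 fell in the wild type line. In Tw1KD against parental cells 5 were higher and 6 lower. All genes together gave 21.7% up and 21.7% down for S42D, 22.8% and 19.7% for S42A, 23.5% and 24.5% for wild type and 19.9% and 16.4% for Tw1KD. Lifr, the leukaemia inhibitory factor receptor, read 7.93, 7.61 and 7.63 in the S42D line and between 5.18 and 5.74 on the arrays of the other 4 lines. It was 2.48 ± 0.086 higher in the S42D line than in Tw1KD cells (adjusted p = 1.4e-11) and 2.13 ± 0.086 higher than in the wild type line (adjusted p = 8.2e-11). Il2rb, a chain of the IL-2 and IL-15 receptors, rose by 1.73 ± 0.071 in the S42D line and 0.91 ± 0.071 in the wild type line, and fell by 0.25 ± 0.071 in the S42A line. The IL-4 receptor gene Il4ra rose by 1.13 ± 0.048, 0.40 ± 0.048 and 0.48 ± 0.048 in the S42D, S42A and wild type lines.

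The falls named from this list came in different lines. Il15ra, the IL-15-binding chain, fell by 1.11 ± 0.073 in the wild type line (adjusted p = 1.1e-08) and by 0.34 ± 0.073 in the S42D line, with 0.07 ± 0.073 in the S42A line (adjusted p = 0.55). Osmr, the oncostatin M receptor, was 1.09 ± 0.078 lower in Tw1KD than in parental cells (adjusted p = 5.4e-08) and 0.63 ± 0.078 higher in the S42D line than in Tw1KD cells. Il27ra, the IL-27 receptor, fell by 0.72 ± 0.064 in the S42A line (adjusted p = 3.1e-07) and by 0.38 ± 0.064 in the S42D line.

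**Figure D4:**
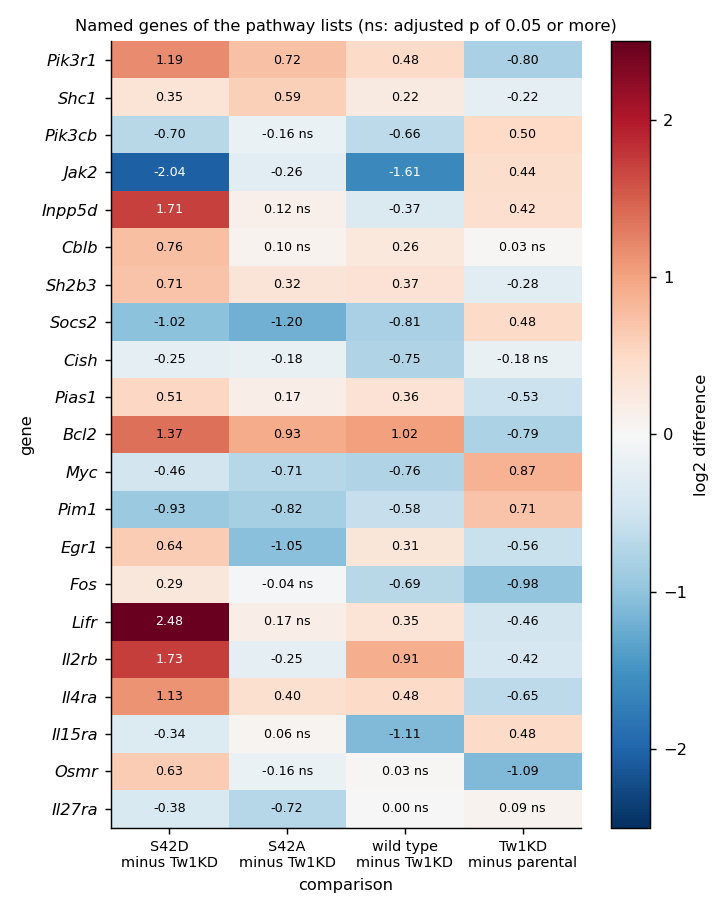
Log2 differences of the named genes of the 4 pathway lists (rows) in the S42D, S42A and wild type lines against Tw1KD cells and in Tw1KD against parental cells (columns), where ns marks an adjusted p of 0.05 or more. Red cells are higher and blue cells lower in the first-named line, from 2.48 for Lifr in the S42D line to -2.04 for Jak2 in the same line.

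Genes with a pattern like that of Csf2rb were sought among 2508 genes whose line means span at least 1 log2, by Pearson's r over the 15 arrays. The 8 most alike were Tubb6 (r = 0.992), a tubulin gene, Chaf1b (0.988), a subunit of the chromatin assembly factor, Donson (0.983), a DNA replication gene, Neurl3 (0.974), Ifi207 (0.971), an interferon-inducible gene, Mis18a (0.971), a centromere gene, Rab7b (0.968), a Rab GTPase, and Cd59a (0.964), a complement regulator. Csf2rb2 stood at place 10 with r = 0.959. Over the 5 line means these r values were between 0.962 and 0.997. The points share lines and scaling, so the r values describe likeness only. The sizes differ: Tubb6 averaged 12.19 in the S42D line and 11.07 in parental cells, and Cd59a averaged 8.59 in the S42D line, 7.37 in the S42A line, 6.79 in the wild type line, 4.42 in Tw1KD cells and 4.53 in parental cells.

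The chromosomal neighbours of the 2 loci were looked up after the values of the family were seen. On chromosome 15 the order of protein-coding genes is Ift27, Pvalb, Ncf4, Csf2rb2, Csf2rb, Tex33, Tst and Mpst. Ncf4, which encodes a subunit of the phagocyte NADPH oxidase and lies next to Csf2rb2, read 7.22, 7.06 and 7.06 in the S42D line, 6.84, 6.92 and 6.80 in the S42A line, 6.75, 6.79 and 6.61 in the wild type line, 6.24, 6.33 and 6.24 in Tw1KD cells and 6.12, 6.27 and 6.10 in parental cells. It was higher than in Tw1KD cells in the S42D line by 0.84 ± 0.064 (adjusted p = 6.3e-08), in the S42A line by 0.58 ± 0.064 (adjusted p = 2.9e-06) and in the wild type line by 0.44 ± 0.064 (adjusted p = 3.9e-05). On the other side Tex33 averaged 5.94 in the S42D line, 6.01 in the S42A line, 5.85 in the wild type line and 5.95 in Tw1KD cells, and none of these lines was called against Tw1KD. Further out, Ift27 rose by 0.635 ± 0.073 with S42D and 0.36 ± 0.073 with wild type, and fell by 0.75 ± 0.073 with S42A, all called. Tst was called higher with S42D and lower with wild type, and Mpst lower with S42A and wild type. Over all genes 43.4%, 42.5% and 48.0% were called against Tw1KD cells in the S42D, S42A and wild type lines.

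On chromosome 11 the order is Slc22a4, Pdlim4, P4ha2, Csf2, Il3, Acsl6, Meikin and Fnip1. Acsl6, an acyl-CoA synthetase gene, read 8.11, 7.95 and 7.93 in the S42D line and between 5.76 and 6.01 on every array of the other lines. It was 2.1 ± 0.068 higher in the S42D line than in Tw1KD cells (adjusted p = 7.1e-12). Csf2 and Acsl6 were thus both highest in the S42D line, and Il3, which lies between them, was not. P4ha2, a collagen prolyl hydroxylase gene on the other side of Csf2, rose against Tw1KD cells by 0.91 ± 0.067 in the S42D line and 0.75 ± 0.067 in S42A cells, and differed by -0.12 ± 0.067 in the wild type line (adjusted p = 0.18). Further out, Slc22a4 fell by 0.52 ± 0.055, 0.40 ± 0.055 and 0.37 ± 0.055 in the S42D, S42A and wild type lines, all called. Pdlim4 was called lower with S42A and Fnip1 lower with wild type, and Meikin was not called against Tw1KD.

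**Figure D5:**
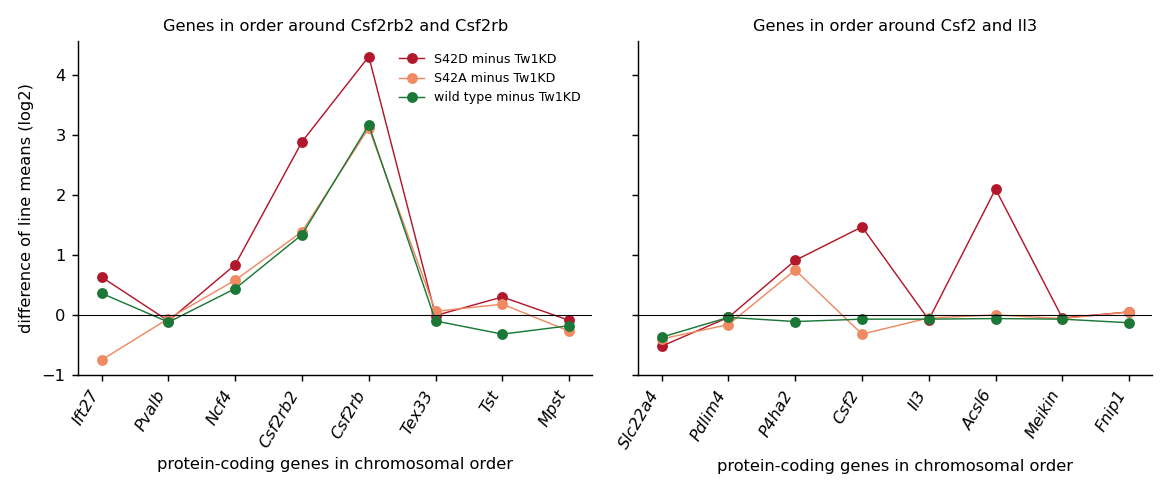
Log2 difference of line means from Tw1KD cells for the protein-coding genes around the beta chain genes (left) and around Csf2 and Il3 (right), in chromosomal order and not to scale, for the S42D, S42A and wild type lines. The points of Ncf4, Csf2rb2 and Csf2rb climb in all 3 lines and drop at Tex33, and Csf2 and Acsl6 stand high in the S42D line on both sides of Il3.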

How the data were processed

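Total RNA from the 15 samples, 100 ng each, was hybridised to arrays, per the labels' protocols. The deposited values, 1 per probe set on 34760 probe sets, are on a log2 scale, as read from the values themselves. R 2.10.0 and the affy package are named in the submitters' processing notes with no role. Background correction and scaling between arrays are not given in the sources used here, so a difference is measured against the rest of the transcripts on an array, and dim signals compress fold changes. Precision is set by the few arrays per line.

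A single gene symbol was found for 21640 probe sets, several for 1321 and none for 11799, and 21553 were matched to a current symbol in the GRCm38.p6 gene table. Each gene took its brightest single-symbol probe set by mean over all arrays, which gave 19937 genes, 954 of them with more than 1 probe set. No filter on dim genes was applied. The model, fitted with limma 3.58.1 (R 4.3.3) to the 15 arrays together, gave each line its own mean, and 10 comparisons were tested 2-sided with Benjamini-Hochberg adjustment over all genes at 0.05. The procedure was tested on simulated data. Errors are SDs for levels and SEs for differences, with n = 3 arrays per line.

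Members and lists (9 lists, 125 of 138 entries measured) were chosen with earlier results of these data known. Besides the 5 chains, the 3 ligands and Twist1, the text names up to 3 members per pathway list with the largest called, non-overlapping rise and 3 with the largest fall over the re-expressing lines against Tw1KD and Tw1KD against parental cells, and the 8 genes most alike Csf2rb, with predicted models passed over. Leukocyte markers and chromosomal neighbours outside this rule were picked after their values were seen. Socs1 and Socs3 are also named outside this rule. Alternatives were 8 other settings and 15 fits that each leave out 1 array.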

Additional observations from a re-analysis of the deposited data

Results flagged for a closer look

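The S42D line differed from the other re-expressing lines in 3 genes of the family and its ligands, by limma's test of the difference itself. Csf2rb was 1.14 log2 higher in the S42D line than in the wild type line and 1.19 higher than in the S42A line. Csf2rb2 was 1.55 and 1.5 log2 higher, and the ligand gene Csf2 1.54 and 1.79 log2 higher, in the same comparisons. In each case all 3 arrays of the S42D line lay above all 3 arrays of the other line. The Csf2rb arrays of these lines also entered the choice of the family, and Csf2rb2 is its near-copy.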

How the results depend on the processing

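Over the receptor chains and the number of genes called in each comparison, 1354 recomputed values stayed alike. Here a tested difference kept its side of the threshold, and an untested one moved by less than the spread between replicates. A count moved by at most 1.5 times. Another 11 untested values moved by more and 5 passed the threshold anew. No called or untested difference between lines changed sign. Some uncalled differences did, such as Csf2ra in Tw1KD against parental cells, from -0.14 to 0.12 when 1 array was left out. Csf2rb in the S42D line exceeded the wild type line by 1.10 to 1.16 and the S42A line by 1.17 to 1.21 under all settings. Leaving out 1 array, its difference from parental cells ran from 5.12 to 5.38 in the S42D line, from 3.93 to 4.19 in S42A cells and from 3.97 to 4.24 in the wild type line, with the low ends without parental replicate 3. Csf2rb2 with median centring was higher than in parental cells by 3.46 in the S42D line, 1.97 in S42A cells and 1.95 in the wild type line, and than in Tw1KD cells by 1.43 in the wild type line. With quantile normalization it was higher by 1.46 in S42A cells and 1.43 in the wild type line against Tw1KD cells, and by 1.97 and 1.94 against parental cells. Median centring moved the median of all genes between the wild type line and parental cells to 0.074, against -0.050 as deposited. With array weights Csf2ra was called for S42A against Tw1KD (0.202), S42A against wild type (0.213) and S42D against S42A (-0.197), and Il5ra for S42A against parental cells with median centring (0.153) and quantile normalization (0.141); the cause was not tested. Among list counts that moved by over 1.5 times, receptor-proximal genes lower in the S42D line were 5, and 3 with median centring, and those higher and lower in Tw1KD against parental cells were 5 and 7, and 3 and 4 with only these lines fitted. Negative regulators lower in the S42A line were 4, and 2 with median centring, and those lower in Tw1KD against parental cells were 3, and 5 with quantile normalization. Of the other receptors lower against Tw1KD cells, the S42D line had 7, and 4 with quantile normalization, the S42A line 3, and 7 with array weights, and the wild type line 7, and 3 with median centring. Those higher in Tw1KD against parental cells were 5, and 2 without parental replicate 1. Replicate numbers appear in every line, but of 30 same-numbered pairs of arrays 7 correlated above 0.1 in their deviations (range -0.390 to 0.417). Only 5 of 15 arrays were closest to their own number, and the main fit did not pair arrays by number. The highest r values were those of Tw1KD with parental cells, 0.394 at replicate 2 and 0.417 at replicate 3. This check cannot show whether same-numbered arrays were handled together. With the replicate block Csf2rb in the S42D line exceeded the wild type line by 1.14 (limma, adjusted p = 1e-06) and no receptor chain or ligand changed its call.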
